A study of Mus musculus with 20 samples.

Results

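Heme breakdown and iron handling were followed through 9 named genes: the heme oxygenases Hmox1 and Hmox2, the biliverdin reductases Blvra and Blvrb, the heme-sensing repressor Bach1, the ferritin subunits Fth1 and Ftl1, the iron exporter ferroportin (Slc40a1) and the transferrin receptor Tfrc. The genes were taken by name from the 42374 genes of the annotation, and all 9 were among the 13971 with enough counts to be tested. The RNA came from muscle endothelial cells, the cells lining the blood vessels of muscle, which were sorted as CD31-positive and CD45-negative. C57BL/6N mice gave the muscles, the soleus as the oxidative and the extensor digitorum longus as the glycolytic muscle. In the Atf4 ECKO mice, Atf4, a transcription factor of the amino acid and stress response, was deleted in endothelial cells. Cre-negative littermates served as wild type. Mice of both genotypes received 1 mg tamoxifen a day for 5 days at 8 to 10 weeks of age, with at least 7 days of washout. The 4 groups of 5 libraries were thus glycolytic wild type, oxidative wild type, glycolytic Atf4 ECKO and oxidative Atf4 ECKO. The Cre driver and the number of animals behind a library are not given in the sources used here. All p-values thus rest on the spread between libraries, and part of that spread may be technical.

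Heme oxygenase opens the heme ring and releases iron, carbon monoxide and biliverdin, and biliverdin reductase turns biliverdin into bilirubin, an antioxidant. The iron is stored inside the ferritin shell, built of heavy (Fth1) and light (Ftl1) chains, or leaves the cell through ferroportin, while transferrin-bound iron enters through the transferrin receptor. Bach1 represses Hmox1, the ferritin genes and other antioxidant genes until heme binds it, whereas Nrf2 (gene Nfe2l2) activates them with small Maf partners. Iron-regulatory proteins act on the messenger RNA: when iron is scarce they bind a hairpin, the iron-responsive element, which blocks translation when it lies in a 5′ UTR and protects the message from decay when it lies in a 3′ UTR. Oxidative fibres are rich in the heme protein myoglobin.

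The messages of 4 of the 9 genes carried this hairpin in the annotated transcripts. Its sequences are shown because iron-regulatory proteins can act through it on translation or on decay of the message. Protein was not measured for any of the 9 genes. The search asked for a C, then 5 bases, then the loop CAGTGN with a last base other than G, then 5 bases able to pair with the 5 before the loop, G-U pairs included. In all, 222 of 21901 protein-coding genes, 1.01%, held such a match, so a match is a description and not a tested site. Each stretch has 29 bases and is printed 5′ to 3′ on the gene's strand, with the loop in capitals, from GENCODE M21 on GRCm38.
Fth1, 5′ UTR: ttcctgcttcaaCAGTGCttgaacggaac
Ftl1, 5′ UTR: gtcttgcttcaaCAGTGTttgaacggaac
Slc40a1, 5′ UTR: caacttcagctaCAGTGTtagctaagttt
Tfrc, 3′ UTR, the first: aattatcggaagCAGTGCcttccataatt
Tfrc, 3′ UTR, the second: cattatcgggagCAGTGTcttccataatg
Tfrc, 3′ UTR, the third: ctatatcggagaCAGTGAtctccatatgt
Tfrc, 3′ UTR, the fourth: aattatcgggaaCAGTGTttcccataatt
They lie at chr19:9982732-9982760 on the plus strand (Fth1), chr7:45459779-45459807 on the minus strand (Ftl1) and chr1:45925465-45925493 on the minus strand (Slc40a1). Those of Tfrc lie on the plus strand at chr16:32631219-32631247, chr16:32631598-32631626, chr16:32631663-32631691 and chr16:32631710-32631738. Fth1, Ftl1 and Slc40a1 thus share the 5′ position, and Tfrc held 4 copies in its 3′ UTR.

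The libraries held 8013223 to 21720127 estimated counts. Levels are given as CPM, counts scaled to a common library total with TMM factors, and a call is an edgeR adjusted p below 0.05. The deleted gene checked the labels: the wild type libraries held 262 ± 13.5 CPM of Atf4 (SD, n = 5) in the glycolytic and 554 ± 21 CPM in the oxidative group, against 7.38 ± 0.996 and 8.29 ± 0.351 CPM after deletion. The endothelial marker Pecam1, which encodes CD31, stood at 1433 to 1861 CPM as group means. Of 10 endothelial markers, 0 were called higher and 7 lower without Atf4 in glycolytic muscle (median log2 difference -0.321). Of all genes tested, 13.9% were higher and 15.1% lower there. In oxidative muscle 3 of the markers were higher and 2 lower (median -0.0242). Between the wild type muscles 1 was higher in oxidative and 4 lower (median -0.0864). The part of the glycolytic marker fall in the results was not tested. Some libraries stood apart: the summed level of 4 Y-linked genes was 92.1 to 118 CPM in the wild type libraries, 0.599 to 1.55 CPM in glycolytic Atf4 ECKO, 64.7, 65.6 and 32.3 CPM in oxidative Atf4 ECKO libraries 1 to 3, and 0.929 and 1.1 CPM in libraries 4 and 5. The labels give no sex. The highest oxidative Atf4 ECKO library, library 2, held 57.5% of the oxidative wild type mean. Sex and genotype thus cannot be told apart in the glycolytic comparison, and are not separated in the oxidative one or in the interaction. The 2 Atf4 ECKO groups also differed in this level. The oxidative comparison is given below also by these subsets, both of which lay below wild type in Y-linked message.

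Between the muscles of wild type mice, 6 of the 9 genes were higher in oxidative endothelium and 1 was lower; of all genes tested, 16.4% were higher, 15.9% lower and 32.4% called in either direction. The higher genes were Hmox1, both ferritin subunits, Slc40a1, Tfrc and Bach1, and the lower gene was Blvra. The median log2 difference of the 9 genes was 0.44, against -0.0033 over all genes tested. Without Atf4, 7 of the 9 were lower and 1 higher in oxidative endothelium, where 17.4% of all genes were lower, 14.6% higher and 32.0% called. In glycolytic endothelium 6 of the 9 were lower, with 15.1% of all genes lower, 13.9% higher and 29.0% called. The median log2 difference of the 9 genes was -0.74 in oxidative and -0.22 in glycolytic muscle, against 0.016 and 0.004 over all genes. The oxidative comparisons share the oxidative wild type libraries, and the glycolytic ones the glycolytic wild type libraries.

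**Figure D1:**
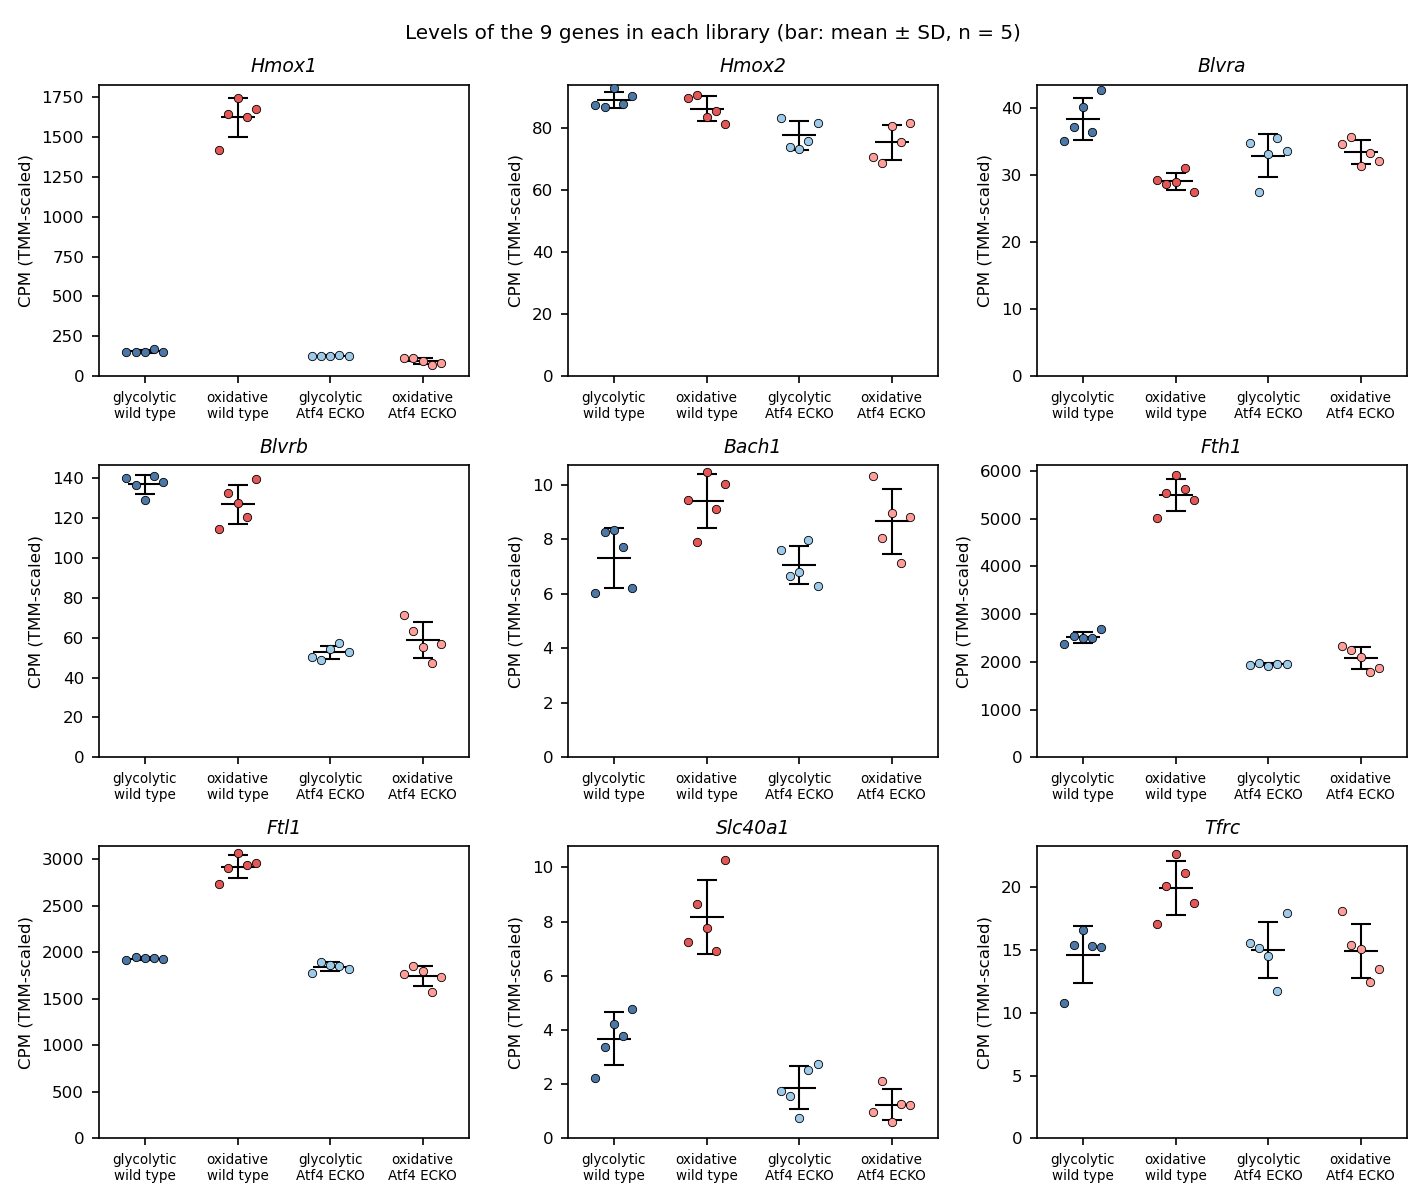
CPM of the 9 genes in each of the 20 libraries (points), with the mean and SD of each group of 5 as bars; the vertical axes start at 0 and differ between genes. Hmox1 stood at 1419 to 1744 CPM in oxidative wild type and at 72.6 to 169.8 CPM in every other library.

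Hmox1, the inducible heme oxygenase (chromosome 8, 75093621 to 75100589, on GRCm38 as for all coordinates here), differed most between the muscles among the 9 genes. The glycolytic wild type libraries 1 to 5 held 150.3, 154, 151, 169.8 and 154 CPM. The oxidative wild type libraries held 1419, 1640, 1744, 1627 and 1677 CPM. The lowest oxidative library lay far above the highest glycolytic one, and the ratio of means was 10.4, a log2 difference of 3.38 ± 0.09 (SE; adjusted p = 3.8e-20). Without Atf4 the oxidative libraries held 113, 115, 98.5, 72.6 and 83.7 CPM, 5.95% of the oxidative wild type mean. This log2 difference was -4.07 ± 0.09 (adjusted p = 6.7e-22), with -3.89 from libraries 1 to 3 alone and -4.37 from libraries 4 and 5 alone. The glycolytic Atf4 ECKO libraries held 129, 128, 130, 132 and 128 CPM, which all lay below the glycolytic wild type libraries. Their mean was 83.2% of wild type, a log2 difference of -0.27 ± 0.08 (adjusted p = 0.019). This call rested on glycolytic wild type library 4, without which it was -0.23 (adjusted p = 0.058). The effect of the deletion differed between the muscles by -3.81 ± 0.12 on the log2 scale (interaction, adjusted p = 6.2e-18). In the absence of Atf4 the order of the muscles was the opposite of that in wild type: Hmox1 was lower in oxidative than in glycolytic endothelium, at 74.4% of its mean (log2 -0.43 ± 0.09, adjusted p = 0.00064). It was -0.24 with oxidative Atf4 ECKO libraries 1 to 3 alone (adjusted p = 0.0056), -0.73 with libraries 4 and 5 alone (2.7e-08) and -1.19 with the myeloid covariate described below (1.6e-05). Hmox1 was the 1 of the 9 genes called in that comparison, in which 18.4% of all genes were called, 8.31% higher and 10.1% lower.

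Hmox2, the constitutive heme oxygenase (chromosome 16, 4726361 to 4766742), moved little. It held 86.6 to 92.7 CPM in the glycolytic and 81.2 to 90.7 CPM in the oxidative wild type, ranges that overlapped, with a log2 difference of -0.05 ± 0.05 (adjusted p = 0.52). In glycolytic Atf4 ECKO it held 73.1 to 83.3 CPM, below every glycolytic wild type library (log2 -0.20 ± 0.05, adjusted p = 0.0052). In oxidative Atf4 ECKO it held 68.8 to 81.5 CPM and overlapped the wild type at its edge (log2 -0.19 ± 0.05, adjusted p = 0.0071), a call lost with oxidative Atf4 ECKO libraries 4 and 5 alone (log2 -0.13, adjusted p = 0.13). Hmox2 values are uncertain: 767 bases of Cdip1, on the opposite strand, are identical to the Hmox2 transcripts, and how strand was handled in the counting is not stated in the sources.

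On the per-length scale, TPM, Hmox1 made up 61% ± 1.62 (SD, n = 5) of the summed heme oxygenase message in glycolytic wild type and 94.4% ± 0.498 in oxidative wild type. After deletion the shares were 59.8% ± 1.65 (glycolytic) and 53.3% ± 5.76 (oxidative). These shares are a description without a test. The oxidative Atf4 ECKO libraries spread widest, from 58.6% and 59.9% in libraries 1 and 2 through 52.6% in library 3 to 47.5% and 48.1% in libraries 4 and 5.

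**Figure D2:**
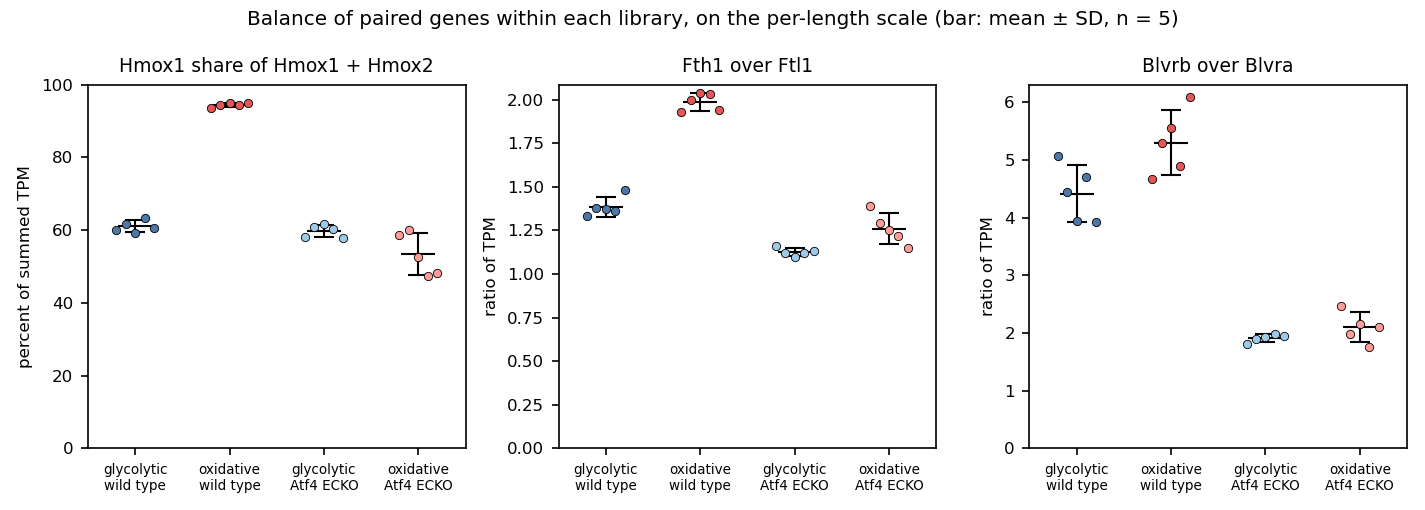
Within-library balance of 3 gene pairs from TPM: Hmox1 as percent of Hmox1 plus Hmox2 (left), Fth1 over Ftl1 (middle) and Blvrb over Blvra (right), with 1 point per library and the mean and SD of each group of 5 as bars. Oxidative wild type holds the highest mean in each panel, and the Blvrb over Blvra ratio is lower in every Atf4 ECKO library, 2.47 at most, than in any wild type library, 3.92 at least.

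Blvrb, the reductase of biliverdin IXbeta that also reduces flavins (chromosome 7, 27447978 to 27466144), fell in both muscles without Atf4 and did not pass the test between the wild type muscles. It held 140.3, 137, 129, 141 and 138 CPM in glycolytic wild type and 115, 133, 128, 121 and 139.5 CPM in oxidative wild type, ranges that overlapped (log2 -0.11 ± 0.07, adjusted p = 0.26). It held 50.5, 48.6, 54.2, 57.2 and 53 CPM in glycolytic Atf4 ECKO, 38.4% of the wild type mean. It held 71.5, 63.6, 55.3, 47.5 and 56.7 CPM in oxidative Atf4 ECKO, 46.4% of the wild type mean. Every Atf4 ECKO library lay below every wild type library. The log2 differences were -1.38 ± 0.08 in glycolytic (adjusted p = 1.9e-13) and -1.11 ± 0.07 in oxidative muscle (adjusted p = 4.9e-12). The interaction was 0.27 ± 0.11 (adjusted p = 0.073). It passed the threshold without oxidative Atf4 ECKO library 4 (adjusted p = 0.012), without oxidative wild type library 5 (0.05 after rounding), with oxidative Atf4 ECKO libraries 1 to 3 alone (0.002), without the low-count filter (0.036), and, at a log2 value of 0.78, with the myeloid covariate described below (0.0097). Whether this difference was called thus depended on the libraries, genes and model terms of the fit.

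Blvra, the reductase of biliverdin IXalpha, the isomer that heme oxygenase forms (chromosome 2, 127070665 to 127097084), was lower in oxidative wild type. It held 35.1 to 42.8 CPM in the glycolytic and 27.6 to 31 CPM in the oxidative wild type without overlap (log2 -0.40 ± 0.07, adjusted p = 5.2e-05). In Atf4 ECKO it held 27.5 to 35.6 CPM in glycolytic and 31.3 to 35.7 CPM in oxidative endothelium, and the difference between the muscles did not pass the threshold there (log2 0.01, adjusted p = 0.92). The deletion effects had opposite signs, -0.22 ± 0.07 in glycolytic (adjusted p = 0.019) and 0.20 ± 0.07 in oxidative muscle (adjusted p = 0.034), and differed by 0.41 ± 0.10 (interaction, adjusted p = 0.0028). Both single effects were fragile: the glycolytic call was lost without glycolytic Atf4 ECKO library 2 (adjusted p = 0.071) or glycolytic wild type library 5 (0.068), and with effective lengths as offsets (0.06). The oxidative call was lost without oxidative Atf4 ECKO library 1 (0.073), 2 (0.079) or 4 (0.056), without oxidative wild type library 1 (0.054), 2 (0.063), 3 (0.059) or 5 (0.092), without the low-count filter (0.11) and with oxidative Atf4 ECKO libraries 4 and 5 alone (log2 0.17, adjusted p = 0.21).

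The ferritin messages were the most abundant of the 9 on the per-length scale, with Fth1 at 3629 to 8237 TPM and Ftl1 at 3004 to 4142 TPM as group means. Together they took 1.24% of all TPM in oxidative wild type and 0.76% in glycolytic wild type, and after deletion 0.679% (oxidative) and 0.685% (glycolytic).

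Fth1, the ferroxidase subunit that oxidises iron for storage (chromosome 19, 9980598 to 9985098), held 2366, 2540, 2494, 2490 and 2682 CPM in glycolytic wild type. It held 5001, 5528, 5905, 5617 and 5390 CPM in oxidative wild type, 2.18 times the glycolytic mean (log2 1.13 ± 0.06, adjusted p = 3.5e-14). It held 2329, 2248, 2103, 1796 and 1877 CPM in oxidative Atf4 ECKO, 37.7% of wild type and below every wild type library (log2 -1.41 ± 0.06, adjusted p = 1.7e-16). The glycolytic Atf4 ECKO libraries held 1941, 1976, 1919, 1949 and 1944 CPM, 77.4% of wild type, also without overlap (log2 -0.37 ± 0.06, adjusted p = 1.8e-05). The fall was larger in oxidative muscle, by -1.04 ± 0.08 on the log2 scale (interaction, adjusted p = 3.6e-10).

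Ftl1, the subunit that helps the iron core to form (chromosome 7, 45457944 to 45459884), was also highest in oxidative wild type, with smaller differences. It held 1916 to 1953 CPM in the glycolytic and 2730 to 3064 CPM in the oxidative wild type, a ratio of means of 1.51 (log2 0.60 ± 0.04, adjusted p = 1.8e-11). In oxidative Atf4 ECKO it held 1577 to 1858 CPM, 59.8% of wild type (log2 -0.74 ± 0.04, adjusted p = 1.8e-13). In glycolytic Atf4 ECKO it held 1775 to 1900 CPM; all lay below wild type, and the difference did not pass the test (log2 -0.07 ± 0.04, adjusted p = 0.24). The interaction was -0.67 ± 0.06 (adjusted p = 2.9e-09). Ftl1 has 7 near-identical copies in the annotation, of which only Ftl1-ps1, Gm10252 and Gm47428 had counts of their own. These held 1.16% to 1.86% of the summed counts, and adding their counts changed no call. The other copies were not among the counted genes, so their share could not be checked. The Fth1 over Ftl1 ratio of TPM was 1.38 ± 0.056 (SD, n = 5) for glycolytic and 1.99 ± 0.051 for oxidative wild type. After deletion it was 1.13 ± 0.021 (glycolytic) and 1.26 ± 0.09 (oxidative), so the message leaned most to the heavy chain in oxidative wild type.

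Slc40a1, ferroportin, the known cellular iron exporter (chromosome 1, 45908068 to 45926523), was scarce, with 9 to 150 estimated counts a library. It held 2.22, 3.38, 4.24, 3.79 and 4.79 CPM in the glycolytic and 7.25, 8.63, 7.76, 6.91 and 10.3 CPM in the oxidative wild type, without overlap (log2 1.13 ± 0.24, adjusted p = 0.00052). It held 0.99, 2.13, 0.606, 1.27 and 1.23 CPM in oxidative Atf4 ECKO, 15.3% of wild type and below each wild type library (log2 -2.78 ± 0.28, adjusted p = 9.7e-09). It held 1.76, 1.55, 0.767, 2.54 and 2.73 CPM in glycolytic Atf4 ECKO, 50.7% of wild type with overlapping ranges (log2 -0.99 ± 0.28, adjusted p = 0.008). That last call was lost when effective transcript lengths entered the fit as offsets (log2 -0.83, adjusted p = 0.098). The fall was larger in oxidative muscle, by -1.79 ± 0.40 (interaction, adjusted p = 0.0014).

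Tfrc, the receptor that takes up transferrin-bound iron (chromosome 16, 32608920 to 32632794), held 10.8 to 16.6 CPM in the glycolytic and 17 to 22.6 CPM in the oxidative wild type, ranges that did not overlap (log2 0.44 ± 0.12, adjusted p = 0.005). It held 12.5 to 18.1 CPM in oxidative Atf4 ECKO (log2 -0.42 ± 0.12, adjusted p = 0.0073) and 11.7 to 18 CPM in glycolytic Atf4 ECKO (log2 0.01 ± 0.12, adjusted p = 0.95), both overlapping the wild type of the same muscle. With effective lengths as offsets neither called difference passed (0.40, adjusted p = 0.18; -0.35, adjusted p = 0.25), and with oxidative Atf4 ECKO libraries 1 to 3 alone the second was -0.29 (adjusted p = 0.098). The interaction was -0.44 ± 0.17 (adjusted p = 0.068). It passed without oxidative Atf4 ECKO library 1 (0.027), glycolytic Atf4 ECKO library 4 (0.026) or oxidative wild type library 1 (0.042), and with oxidative Atf4 ECKO libraries 4 and 5 alone (0.018).

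Bach1 (chromosome 16, 87698945 to 87733346), the repressor, was among the scarce messages, at 1.61 to 2.02 TPM as group means. It held 6.04 to 8.32 CPM in the glycolytic and 7.9 to 10.5 CPM in the oxidative wild type, with overlap (log2 0.36 ± 0.12, adjusted p = 0.025). The call was lost without the low-count filter (0.36, adjusted p = 0.076), and without oxidative wild type library 3 (0.067) or 5 (0.054) or glycolytic wild type library 1 (0.068) or 5 (0.075). The deletion changed it by -0.12 ± 0.12 in oxidative (adjusted p = 0.52) and -0.05 ± 0.13 in glycolytic muscle (adjusted p = 0.83), neither past the threshold. Heme also acts on the Bach1 protein, which these libraries do not measure.

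**Figure D3:**
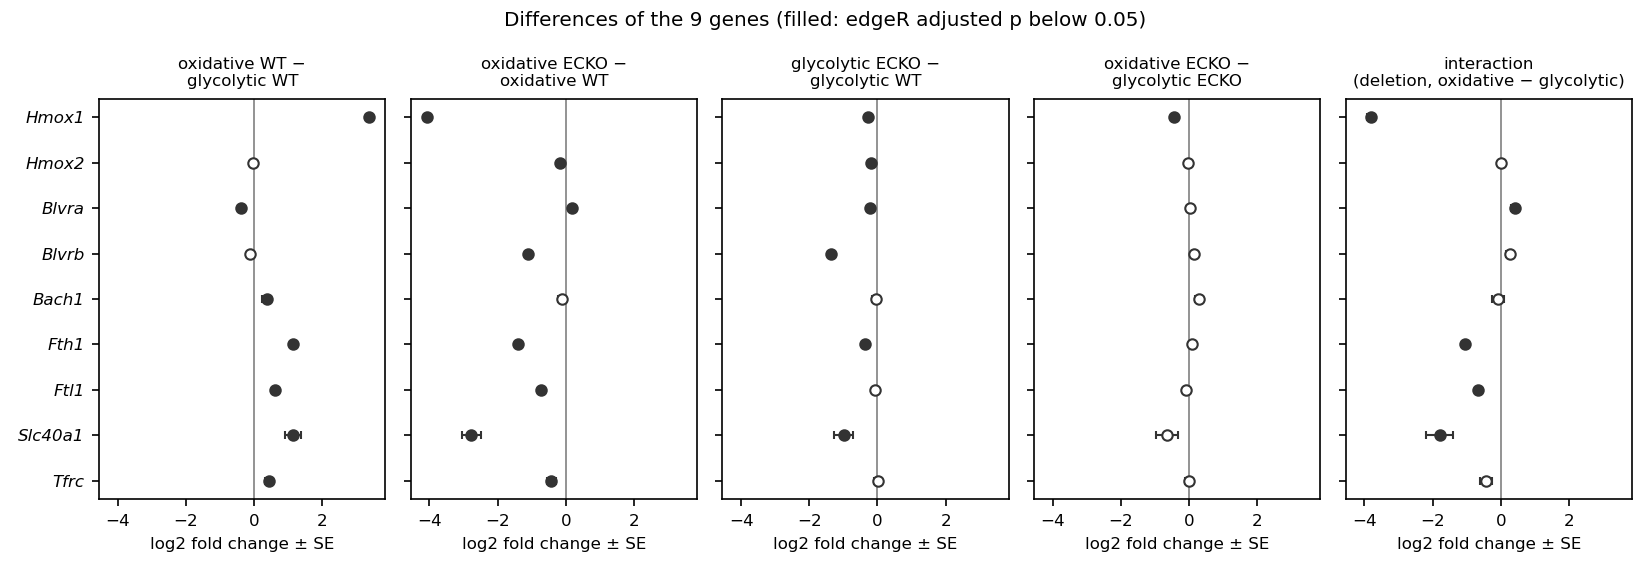
log2 differences of the 9 genes with SE bars in the comparisons of muscle, genotype and their interaction; filled points passed an edgeR adjusted p below 0.05. Hmox1 lies farthest from 0 between the wild type muscles (3.38) and for the deletion in oxidative muscle (-4.07), and Blvrb for the deletion in glycolytic muscle (-1.38).

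The fall in oxidative muscle was present in both subsets of the oxidative Atf4 ECKO libraries. With libraries 1 to 3 alone it was -1.29 for Fth1, -0.68 for Ftl1, -2.84 for Slc40a1 and -0.99 for Blvrb on the log2 scale (adjusted p = 4.1e-18, 7.3e-14, 1.5e-07 and 7.3e-12). With libraries 4 and 5 alone it was -1.58, -0.82, -2.70 and -1.28 (adjusted p = 1.2e-18, 1.4e-13, 4.6e-07 and 3.2e-13).

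Across the 9 genes, the interaction was called for 5, 4 of them with a more negative deletion effect in oxidative muscle (Hmox1, Fth1, Ftl1, Slc40a1) and 1 with a more positive one (Blvra); of all genes 22.6% were called, 12.5% more negative and 10.1% more positive. The genes whose message was raised in oxidative wild type and lost most without Atf4 were thus the first enzyme of heme breakdown, the storage subunits and the exporter.

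The sort aimed at endothelial cells, and transcripts of other cells moved with several of these results. The summed level of 15 myeloid markers was 33.7 to 38 CPM in the glycolytic and 349 to 445 CPM in the oxidative wild type libraries. After deletion it was 21 to 22.6 CPM (glycolytic) and 50.5 to 108 CPM (oxidative). Macrophages express Hmox1, ferritin and Slc40a1 strongly. Ptprc, which encodes CD45, averaged 2.53 CPM in oxidative wild type and 0.252 CPM or less in the other groups, and the macrophage gene Adgre1 averaged 2.98 CPM and 0.604 CPM or less; each was at 0 in 2 of the 5 glycolytic Atf4 ECKO libraries, and Adgre1 also in 2 of the 5 glycolytic wild type libraries. In bulk RNA, fewer cells of a type and less RNA per cell cannot be told apart. Oxidative Atf4 ECKO held more myeloid marker message than glycolytic wild type and less Hmox1, 72.6 to 115 against 150.3 to 169.8 CPM.

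With the mean log2 level of the 14 tested myeloid markers as a covariate, Hmox1 kept its calls between the wild type muscles (log2 1.75, adjusted p = 0.00034), for the deletion in oxidative muscle (-2.92, adjusted p = 1.7e-09) and in the interaction (-2.94, adjusted p = 2.8e-11), each smaller than without it. Its fall in glycolytic muscle was lost (0.025, adjusted p = 0.86). Fth1 and Ftl1 kept the fall in oxidative Atf4 ECKO (-0.68, adjusted p = 0.0054; -0.49, adjusted p = 0.033) and lost the difference between the wild type muscles (0.10, adjusted p = 0.87; 0.24, adjusted p = 0.57). Their interactions were -0.49 and -0.48 (adjusted p = 0.013 and 0.0079), below the values without the covariate. Slc40a1 lost the 3 calls in single contrasts, with log2 values of 1.29 (adjusted p = 0.72), -2.90 (0.13) and -1.02 (0.062), and its interaction was -1.88 (0.22), also no longer called. Blvrb kept the glycolytic fall (-1.20, adjusted p = 2e-11) and not the oxidative one (-0.43, adjusted p = 0.32). Blvra passed in none of the comparisons under this covariate (adjusted p = 0.15 for the interaction), and the Tfrc and Bach1 differences between the wild type muscles turned in sign without passing (-1.07, adjusted p = 0.3; -0.10, adjusted p = 0.96). The marker level did not overlap between the groups compared, so this covariate is estimated from differences within groups and carried beyond them.

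Erythroid markers, 9 of the 10 listed, summed to 3791 to 4013 CPM in the glycolytic and 4402 to 6753 CPM in the oxidative wild type libraries, and after deletion to 2268 to 2492 CPM (glycolytic) and 2506 to 4279 CPM (oxidative). Blvrb and ferritin are also abundant in red cell precursors. The erythroid sums of oxidative Atf4 ECKO spanned those of glycolytic wild type, where Blvrb was 129 to 141 CPM against 47.5 to 71.5 CPM. Beyond these values, the part of red cells in the Blvrb and ferritin results was not tested.

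Markers of muscle tissue also differed between the groups. Summed fibre markers (12 genes) averaged 45.5 CPM in the glycolytic and 137 CPM in the oxidative wild type, and 123 and 215 CPM after deletion. Summed fibroblast markers (8 genes) averaged 55.2 and 217 CPM in wild type and 124 and 238 CPM after deletion, with a range of 61.9 to 428 CPM within oxidative Atf4 ECKO. Summed mural cell markers (8 genes) averaged 720.3 and 525 CPM in wild type and 1496 and 749.9 CPM after deletion. The mean sums of all these lists were thus higher after deletion in both muscles, but not every list rose as a set. The glycolytic mural rise lay mainly in Acta2, at 188.6 CPM in wild type and 1024 CPM after deletion. Of the 8 mural genes, 1 was called higher and 1 lower there, with a median log2 difference of -0.0218. Of the 8 fibroblast genes, 0 were called for the deletion in oxidative muscle and 4 were higher in glycolytic muscle. The part of fibre, fibroblast and mural cells in the results was not tested.

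**Figure D4:**
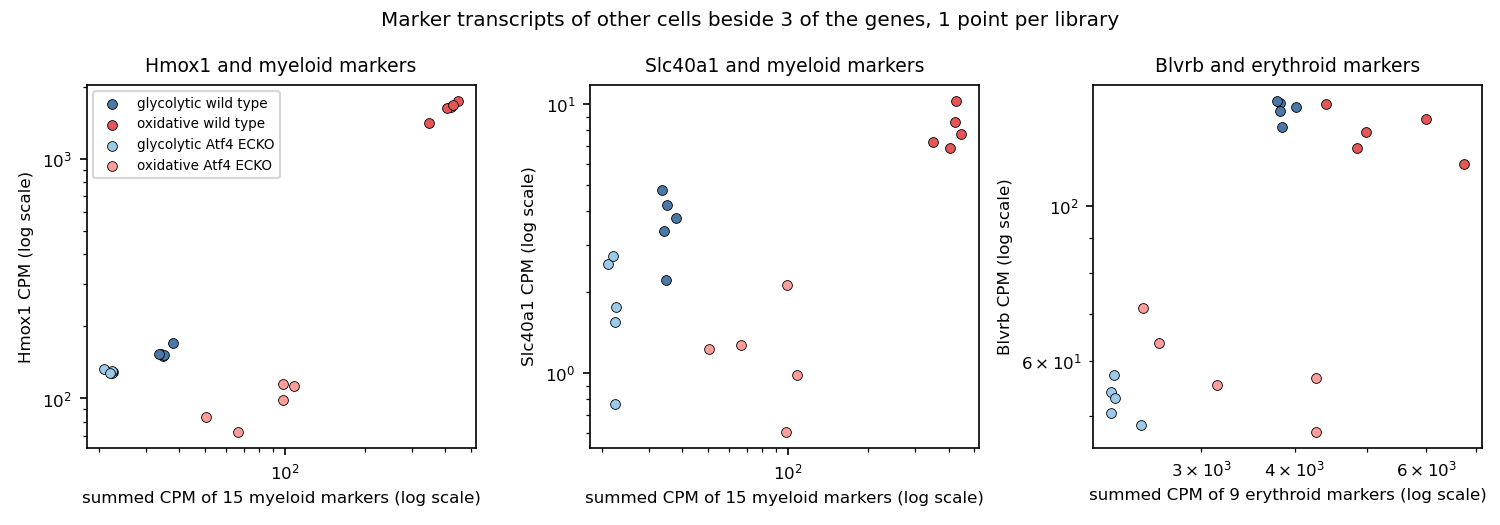
Hmox1 (left) and Slc40a1 (middle) against the summed CPM of 15 myeloid markers, and Blvrb (right) against that of 9 erythroid markers, 1 point per library, all axes logarithmic. Oxidative wild type is high on both axes of the first and middle panels; oxidative Atf4 ECKO lies right of glycolytic wild type, with 50.5 to 108 against 33.7 to 38 CPM of myeloid markers, and below it for Hmox1 and Slc40a1.

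A list of regulators of Hmox1, which also holds the stress gene Hspa1a, and the antioxidant genes that Bach1 and Nrf2 share as targets were read beside the 9 genes. Of 13 shared targets, all tested, 12 were lower without Atf4 in oxidative and 10 in glycolytic endothelium, with median log2 differences of -1.28 and -0.47. Of all genes tested, 17.4% and 15.1% were lower in these 2 comparisons. Between the wild type muscles 7 of the 13 were higher in oxidative endothelium and 3 lower, where 16.4% of all genes were higher and 15.9% lower. Slc7a11, the cystine transporter, was 1.40 ± 0.10 higher on the log2 scale in oxidative wild type (adjusted p = 8.8e-12) and -3.77 ± 0.11 and -2.21 ± 0.12 without Atf4 in oxidative and glycolytic muscle (adjusted p = 1.6e-19 and 1.1e-13). Gclm, a subunit of the enzyme that starts glutathione synthesis, fell by 2.15 and 0.90 on the log2 scale (adjusted p = 5.8e-20 and 6.8e-12). Nqo1, a quinone reductase, was instead lower in oxidative wild type (log2 -0.71 ± 0.06, adjusted p = 2e-10), and fell by 1.70 and 1.94 without Atf4 (adjusted p = 1.3e-17 and 2.2e-18). Slc48a1, which brings heme out of the lysosome and is also on the heme transport list, fell by 0.71 and 0.47 (adjusted p = 4.4e-13 and 2.6e-09).

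Of the 14 genes on the list of Hmox1 regulators, all tested, 10 were higher in oxidative than glycolytic wild type. Without Atf4 in oxidative muscle 10 were lower, and the medians of the 2 comparisons were 0.35 and -0.29. Of all genes tested, 16.4% were higher in the first of these comparisons and 17.4% lower in the second. In glycolytic muscle 3 of the 14 listed genes were higher and 6 lower without Atf4, where 13.9% of all genes were higher and 15.1% lower. Among those with a mean of at least 4 CPM, Fosl1, Atf3 and Hspa1a differed most between the wild type muscles. They were higher in oxidative by 2.296, 2.095 and 1.722 on the log2 scale (adjusted p = 3.9e-13, 6.5e-16 and 2.2e-09). Without Atf4 in oxidative muscle they changed by -2.505, -1.966 and -2.255 (adjusted p = 8.1e-14, 1.1e-15 and 2.1e-11). Hspa1a, which encodes a heat shock chaperone and is not itself a regulator of Hmox1, also changed by -1.789 in glycolytic muscle (adjusted p = 6.6e-09). Nfe2l2, chosen after its values were seen, was 0.16 ± 0.05 higher in oxidative wild type (adjusted p = 0.018). Without Atf4 it changed by -0.27 in oxidative and -0.19 in glycolytic muscle (adjusted p = 0.00014 and 0.0061). The Nrf2 protein was not measured, and its part in the Hmox1 changes was not tested. The small Maf genes were higher in oxidative wild type, by 0.95 (Maff), 0.59 (Mafg) and 0.72 (Mafk) on the log2 scale (adjusted p = 2.4e-06, 3.6e-08 and 1.9e-09). Without Atf4, Maff rose by 1.17 in glycolytic muscle (adjusted p = 1.4e-07) with a log2 difference of 0.23 ± 0.13 in oxidative muscle (adjusted p = 0.17), and Mafg fell by 0.53 in oxidative muscle (adjusted p = 3.3e-07) with 0.12 in glycolytic muscle (adjusted p = 0.17). Mafk fell by 0.32 in oxidative muscle and rose by 0.44 in glycolytic muscle (adjusted p = 4e-04 and 8.9e-06; interaction -0.76, adjusted p = 6.3e-07).

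The other lists had calls in both directions, and their counts are read against the shares of all genes called, 32.4% between the wild type muscles, 32.0% for the deletion in oxidative and 29.0% in glycolytic muscle. Of 8 heme synthesis genes, all tested, 1 was higher and 1 lower between the wild type muscles, and 2 were higher without Atf4 in oxidative muscle. Alas1, the first enzyme of heme synthesis, ran against Hmox1 between the wild type muscles and for the deletion in oxidative muscle. It was 0.37 ± 0.06 lower in oxidative wild type (log2 -0.37, adjusted p = 1.2e-05) and 0.22 ± 0.06 higher there without Atf4 (adjusted p = 0.0042). Uros, of the same list, was instead 0.588 ± 0.144 higher in oxidative wild type (adjusted p = 0.0024). Without Atf4, Uros was 0.412 ± 0.148 higher in glycolytic muscle (adjusted p = 0.037). Of 15 tested genes of iron uptake and transport (17 listed), 3 rose and 3 fell without Atf4 in oxidative muscle, and 3 fell in glycolytic muscle. Ceruloplasmin (Cp), the ferroxidase that works with ferroportin, fell by 1.00 and 0.88 on the log2 scale in oxidative and glycolytic muscle (adjusted p = 1.6e-11 and 4.5e-10). The mitochondrial iron importer Slc25a37 was 0.69 ± 0.10 higher in oxidative wild type (adjusted p = 6.5e-06) and fell by 0.66 without Atf4 there (adjusted p = 1.4e-05). Lcn2 was 1.614 higher in oxidative wild type (adjusted p = 4.9e-07). It changed by -0.969 and -1.101 without Atf4 in oxidative and glycolytic muscle (adjusted p = 0.00037 and 0.00076). Steap4 ran the other way in oxidative muscle, at -0.942 between the wild type muscles and 0.545 without Atf4 (adjusted p = 5.6e-06 and 0.0036).

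Of 9 tested genes of iron regulation (13 listed), 1 was higher without Atf4 in oxidative muscle and 3 were lower in glycolytic muscle. The higher gene was Id1 (log2 0.638 ± 0.092, adjusted p = 4.3e-06), which was lower in glycolytic muscle (-0.295, adjusted p = 0.016). The messages of the iron-regulatory proteins, which bind the hairpins printed above, moved little. Aco1 was 0.19 lower in oxidative wild type (log2 -0.19 ± 0.06, adjusted p = 0.012). Ireb2 changed by -0.25 ± 0.08 without Atf4 in glycolytic muscle (adjusted p = 0.016). The amount and the binding of these proteins were not measured. Bmp6, a signal from endothelial cells that drives hepcidin in the liver, fell by 0.67 without Atf4 in glycolytic muscle (adjusted p = 2.3e-08), with -0.03 in oxidative muscle (adjusted p = 0.75; interaction 0.63, adjusted p = 1.4e-05). Of 9 tested genes of heme transport and scavenging (11 listed), 4 fell and 1 rose without Atf4 in glycolytic muscle. Of 13 iron-sulfur assembly genes, 3 fell and 1 rose there, close to the 29.0% of all genes called.

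**Figure D5:**
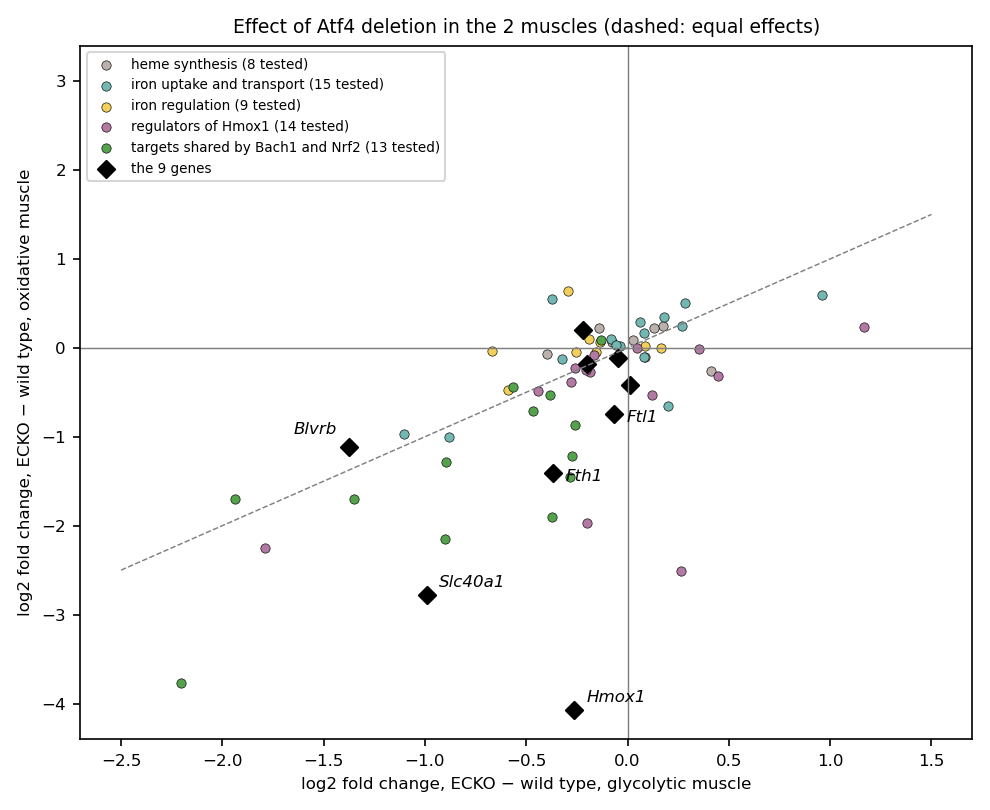
log2 effect of the Atf4 deletion in oxidative muscle (vertical axis) against glycolytic muscle (horizontal axis) for the 9 genes (black diamonds) and the tested genes of 5 lists (coloured points); the dashed line marks equal effects. Hmox1 lies far below the line (-4.07 against -0.27), Slc40a1, Fth1 and Ftl1 also below it, and Blvrb slightly above (-1.11 against -1.38).

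For the 5 genes with a called interaction, the 3 genes of most similar pattern were found by the root mean square difference of centred log2 CPM over the 20 libraries, among 9869 candidates. For Hmox1 they were Gadd45a (0.56), Stc2 (0.58) and Cxcl1 (0.63), where the amplitude, the root mean square of Hmox1 about its own mean, was 1.63. Each distance is read against the amplitude of its gene, and the nearest genes need not be close. Gadd45a averaged 12.9 CPM in the glycolytic and 74.7 CPM in the oxidative wild type, and 9.06 and 12.3 CPM in the Atf4 ECKO groups. For Fth1 they were Sars (0.12), Ghitm (0.15) and Morc4 (0.15), against an amplitude of 0.60. For Slc40a1 they were Gclm (0.47), Psph (0.47) and Eif4ebp1 (0.49), against 1.11. For Ftl1 they were Anp32b, Ampd3 and Rheb (0.080 to 0.086, against 0.30), and for Blvra they were Eci2, Psme2 and Hk1 (0.081 to 0.094, against 0.17).

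The RefSeq promoter table on GRCm38.p6, from 250 bases before to 50 after each start, held entries for 7 of the 9 genes, not for Hmox1 and Slc40a1. They were searched on both strands for the antioxidant response core TGACNNNGC, the C/EBP-ATF element TGATGNAAN and the cAMP response element TGACGTCA, which 12.4%, 3.95% and 1.79% of 32851 promoters hold. The antioxidant core was found once, in Blvra, 49 bases before the start on the minus strand. The absence of these letters from the other windows says nothing of a factor's binding.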

How the data were processed

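Polyadenylated RNA of the 20 libraries was sequenced from 1 end (100 bases), per the labels. The authors deposited a table of estimated counts and TPM per transcript for each library, made with kallisto per the submitters' processing notes, which also name DESeq2, without versions, and the human build GRCh38.p13. The identifiers belong to mouse transcripts: 128643 of 129439 were found in GENCODE M21 on GRCm38, 128254 with the same length, and gave all names and coordinates. Deposited effective lengths (in bases) served 1 alternative.

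Estimated counts were summed per gene and rounded; at most 0.221% of a library's counts had no gene. TPM was summed per gene for levels between genes. Tests were edgeR 4.0.16 quasi-likelihood fits in R 4.3.3 with TMM factors, filterByExpr and all 20 libraries as 4 group means, with Benjamini-Hochberg adjustment over 13971 genes. SE is the log2 value over the square root of F. The script was tested on simulated data. Member counts ranged from 9 (Slc40a1) to 89401 (Fth1) a library, so Slc40a1 is the least precise. No pair of libraries within a group was a duplicate (lowest chi-square per degree of freedom 2.64). Pairs across groups were not checked.

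The 9 genes and the gene lists were chosen with earlier results of these data known. Outside them, up to 4 called genes per list and comparison with a mean of at least 4 CPM could be named, plus defining markers, Atf4 and, for genes with a called interaction, the 3 nearest patterns. Alternatives were RLE factors, no filter, DESeq2 1.42.0, limma-voom (limma 3.58.1), the compared groups alone, length offsets, a replicate block, a myeloid covariate, added Ftl1 copies, subsets of oxidative Atf4 ECKO and each library left out. Ftl1 copies other than named pseudogenes were added after seeing the data.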

Additional observations from a re-analysis of the deposited data

Results flagged for a closer look

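The deletion effect differed between the muscles by the edgeR interaction test (oxidative minus glycolytic, log2) for 5 of the 9 genes: Hmox1 (-3.81), Fth1 (-1.04), Ftl1 (-0.67), Slc40a1 (-1.79) and Blvra (0.41). It was also called, with a negative value, for Lyz2 (-1.81), Slc7a11 (-1.56), Gclm (-1.25), Txnrd1 (-1.17), Maff (-0.93), Slc25a37 (-0.86), Mafk (-0.76), Uros (-0.68), Mafg (-0.65), Srxn1 (-0.35) and Slc48a1 (-0.24). Positive values were called for Steap4 (0.92), Bmp6 (0.63), Abcg2 (0.37), Alas1 (0.36), Glrx5 (0.32) and Ciao1 (0.29).

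Single libraries stood apart from the other 4 of their group by Dixon's test in 4 of 132 groups of values examined, where chance gives about 1 in 20. In glycolytic wild type these were the highest Hmox1 value (169.8 CPM, library 4), the lowest Tfrc value (10.8 CPM, library 1) and the highest Uros value (6.32 CPM). In oxidative wild type it was the lowest Mafg value (39.4 CPM).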

How the results depend on the processing

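RLE factors, DESeq2, limma-voom and the fit of the compared groups alone changed no call of the 9 genes. The number called between the muscles in Atf4 ECKO was 1, and became 2 with oxidative Atf4 ECKO libraries 4 and 5 alone, 3 with libraries 1 to 3 alone and 1 to 2 when each library was left out in turn. Of all genes, 2573 were called in the main fit, 2214 and 2649 with these subsets, and 2161 to 2617 with each library left out. In the first subset Ftl1 was added (-0.15, adjusted p = 0.022), in the other Fth1 (0.21, 0.0011) and Blvrb (0.28, 0.007). The largest shifts came with the myeloid covariate: members called were 1 between the wild type muscles, 4 and 3 for the deletion in oxidative and glycolytic muscle and 2 between the Atf4 ECKO muscles, and genes called were 1086, 1545 (oxidative), 1161 (Atf4 ECKO muscles) and 1763 (interaction), against 4520, 4470, 2573 and 3163. Under it, among differences called with or without it, the sign turned for Bach1 (-0.10) and Tfrc (-1.07) between the wild type muscles, Tfrc for the deletion in oxidative muscle (0.66), Hmox1 in glycolytic muscle (0.025) and Fth1 between the Atf4 ECKO muscles (-0.39); the cause was not tested. Differences called in neither fit also turned, among them the Tfrc interaction (0.39), Bach1 for the deletion in oxidative muscle (0.22), Blvrb between the Atf4 ECKO muscles (-0.29) and Hmox2 between the wild type muscles (0.52). Whether replicate numbers pair the libraries is not stated in the sources. Deviations from the group means correlated at -0.066 to 0.1 (median 0.0152) between libraries of the same number in different groups. For different numbers the range was -0.121 to 0.0746 (median -0.000107). Of 20 libraries, 7 correlated best with their own number. These pairs mix genotypes, so pairing of the 2 muscles of 1 animal was not tested. With the replicate number as a block, 4388, 4332, 3969, 2442 and 3064 genes were called, and among the 9 genes the Blvra call in oxidative muscle was lost (0.20, adjusted p = 0.05 after rounding). Counts of 9 to 150 a library limit Slc40a1 most.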
